A study of Rattus norvegicus with 36 samples.

Results

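The subunits of the oxidative phosphorylation system were followed in the rat aorta. They were taken as the rows whose symbol marks a nuclear subunit of NADH dehydrogenase (Nduf), succinate dehydrogenase (Sdh), the cytochrome bc1 complex (Uqcr), cytochrome c oxidase (Cox) or ATP synthase (Atp5), or starts with Mt- for a gene of the mitochondrial genome. Of 26106 rows 100 matched these symbols, and 92 of them, whose values averaged at least 0.5 across the libraries, were the members. Of these, 79 are nuclear and 13 are Mt- genes. The nuclear members are 32 of complex I, 4 of complex II, 9 of complex III, 15 of complex IV, 15 of complex V and 4 related rows (Ndufa4l2, Cox7a2l, Atp5s and Atp5sl). Ndufa4 was counted with complex IV. The Mt- genes are 7 of complex I, 1 of complex III, 3 of complex IV and 2 of complex V. Just inside the limit were Atp5f1 with a mean of 0.513 and Cox6b2 with 0.816. The 8 rows outside it were Cox6a2, Cox6c-ps1, Cox7a1, Cox8c, a pair of Ndufa1 rows, Ndufa13 and Ndufv3-ps1, all at or near 0. A row near 0 need not mean that the gene is silent. Of 90 cytosolic ribosomal protein rows 71 passed the limit, but Rps6 (mean 0.00968) and Rps19 (0.0626) did not. Why such rows are low was not tested.

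Total RNA of the aorta was sequenced from male rats of 3 strains on 2 diets. SS is the Dahl salt-sensitive rat, and the congenic strains S2Ba and S2Bb carry Brown Norway (BN) chromosome 2 on the SS background, its distal portion in S2Ba and a middle segment in S2Bb. Feeding with normal salt or with high salt (4% NaCl) began at an age of 4 to 6 weeks and ended at 12 to 13 weeks. Each group has 6 samples in the labels, and values were held for 6 libraries on normal salt in each strain, 5 each of SS and S2Ba on high salt and 6 of S2Bb on high salt. Not analysed here were replicate 3 of SS and replicate 2 of S2Ba, both on high salt. All 3 strains share the SS background, and the origin of the mitochondrial genome of the congenic strains is not given in the sources used here. The labels do not state that the samples are separate animals, so the p-values rest on the spread among these libraries, which may be technical. Bulk tissue was sequenced, and fewer cells of a type cannot be told apart from less RNA per cell.

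Oxidative phosphorylation makes ATP at the inner mitochondrial membrane. Complexes I and II pass electrons from NADH and succinate to ubiquinone, complex III passes them to cytochrome c and complex IV to oxygen, while complexes I, III and IV pump the protons that drive the ATP synthase, complex V. Mitochondrial DNA encodes some core subunits of complexes I, III and IV and part of the proton channel of complex V, whose RNAs are cut from long transcripts, whereas complex II and all other subunits are nuclear genes whose proteins are imported. In the arterial wall smooth muscle, endothelium, fibroblasts and the fat around the vessel all carry the system, and some subunits have isoforms that mark brown fat or striated muscle.

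Values are normalised reads, each library's read counts divided by its size factor, and they compare a gene between libraries but not with other genes, because no transcript lengths were used. Depth was 8753735 to 15168833 reads per library. The 13 Mt- genes took 1.18% to 3.01% of the reads of a library and the 79 nuclear members 0.383% to 0.648%. The most abundant row, AY172581.24, took 13.9% to 22.5%, and in 6 libraries it passed 20%: SS normal salt replicates 2, 4 and 6, SS high salt replicate 4 and S2Ba normal salt replicates 1 and 4. All rows named AY172581 took 14.9% to 24.2%. These rows were treated as mitochondrial, like the Mt- genes, in the scaling without mitochondrial genes. By that treatment the Mt- share is only a part of the mitochondrial reads. Results are given below without the 6 libraries over 20% where that changed them. All 8 smooth muscle markers were measured, with a summed level of 20056 to 27308 over all libraries. Of 10 adipocyte markers 9 were measured, and their summed level ran from 71.3 to 1811 between libraries.

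The nuclear members and the Mt- genes differed in how much they varied. Each member was set to its own mean over the 34 libraries, and the median over members was taken in each library. For the 79 nuclear members this relative level ran from 78.7% to 124.5% of the mean, and for the 13 Mt- genes from 55.7% to 191%. The Mt- level was highest in SS normal salt replicate 2 (191%), S2Bb normal salt replicates 2 and 5 (168% and 162%), S2Ba normal salt replicate 1 (147%), SS normal salt replicate 4 (141%), S2Bb high salt replicate 6 (138%) and SS normal salt replicate 6 (132%). In the same libraries the nuclear level was 104.8%, 85.0%, 111%, 124%, 90.2%, 105% and 93.5%, so a high Mt- level came with nuclear levels on either side of the mean. Within groups, the coefficient of variation had a median of 30.0% over the Mt- genes (20.4% to 46.1%) and of 12.8% over the nuclear members. The nuclear range was 8.04% for Atp5c1, the gamma subunit of the ATP synthase, to 118.5% for Cox8b. Adipocyte markers were high in the 7 libraries just named, with summed levels of 811, 626, 631, 1811, 920.1, 522 and 741, each among the 3 highest of its group. Other libraries did not follow this. S2Ba high salt replicate 3 had the highest Mt- level of its group (93.6%) and the lowest sum (73.8). SS high salt replicate 4 had the highest Mt- level of its group (104.7%) and a sum of 136. S2Ba normal salt replicate 5 had a sum of 601 at an Mt- level of 75.6%. The part of the adipocyte markers in the result was not tested.

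**Figure D1:**
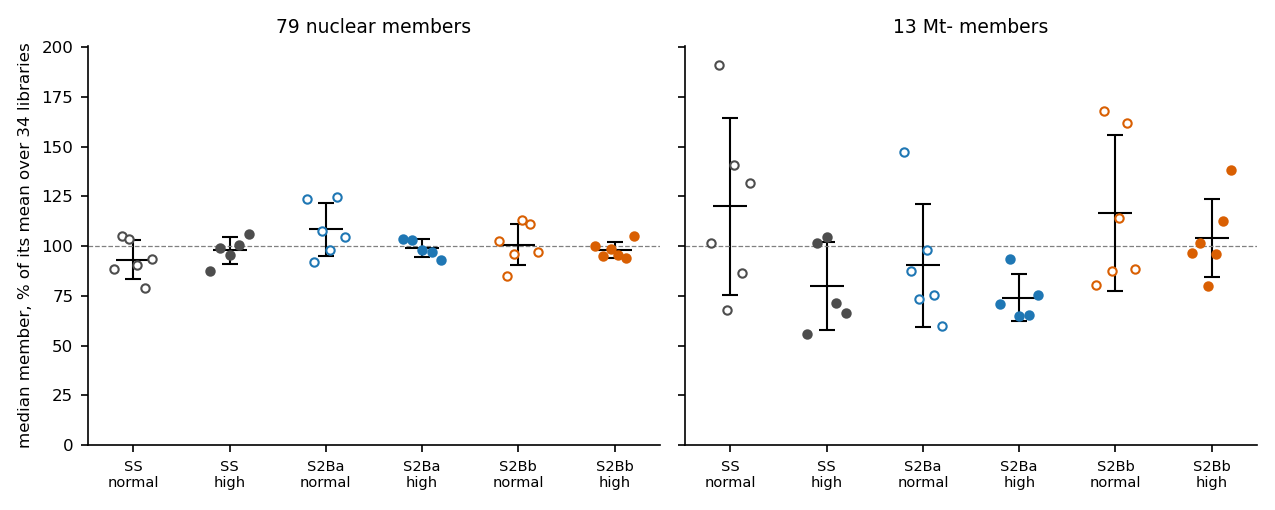
Relative level of the 79 nuclear members (left) and of the 13 Mt- genes (right) in each library, as the median over members of the percent of each member's mean over 34 libraries. Points are libraries (open for normal salt, filled for high salt), and bars are the group mean with SD; the Mt- genes spread from 55.7% to 191% and the nuclear members from 78.7% to 124.5%.

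In SS rats on high salt few nuclear subunits passed the test, and those of complexes II to V that did were higher. Of the 79 nuclear members 4 rose and 1 fell, a share of 6.33% against 8.38% of all 13475 tested genes, of which 4.44% were higher and 3.94% lower. A member was called at an adjusted p under 0.05. The median log2 fold change was 0.08 over the nuclear members and -0.02 over all genes, with 52 positive and 27 negative. In complex I the called gene was Ndufb7, an accessory subunit of its membrane arm. Its normal salt libraries had a lowest value of 8.55, a median of 9.66 and a highest of 11.3, and the high salt libraries had 8.27, 7.06, 6.53, 6.44 and 5.37. The diets did not overlap, which held for 5.99% of all genes, and the log2 fold change was -0.54 (SE 0.13, adjusted p = 0.0133). Sdhc, a membrane anchor of complex II, ran from 88.2 to 133 with a median of 107 on normal salt and was at 125, 132, 152, 140.2 and 157 on high salt. The diets overlapped, and its log2 fold change was 0.37 (SE 0.11, adjusted p = 0.0383). The other complex II genes were not called. Sdha, the flavoprotein, was at 175 ± 19.8 on normal and 162 ± 14.2 (SD) on high salt, Sdhb, the iron-sulfur subunit, at 56.7 ± 8.13 and 50.6 ± 4.51, and the anchor Sdhd at 92.4 ± 11.5 and 99.03 ± 9.19.

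Uqcr10, a small subunit of complex III, ran from 45.8 to 68.3 with a median of 51.2 on normal salt in SS and was at 60.7, 65.7, 65.6, 65.97 and 76.98 on high salt. High salt values lay above all normal salt libraries but replicate 3, and the log2 fold change was 0.34 (SE 0.10, adjusted p = 0.0326). Cox7c, a small subunit of complex IV, ran from 46.1 to 76.8 with a median of 57.4 and was at 69.5, 77.8, 67.5, 73.7 and 83.5, with overlap and a log2 fold change of 0.35 (SE 0.11, adjusted p = 0.0463). Atp5g1 encodes a precursor of the c subunit, which forms the rotor ring of the ATP synthase. It ran from 21.2 to 35.8 with a median of 24.2 on normal salt and was at 33.7, 36.8, 35.5, 34.7 and 43.6 on high salt, a log2 fold change of 0.49 (SE 0.11, adjusted p = 0.00767). Again replicate 3 of normal salt alone reached the high salt values. Nuclear calls went from 5 to 0 without the 6 libraries over 20% in AY172581.24, to 1 with clock components as covariates and to between 1 and 9 when single libraries were left out. Clock genes differed between the diets in SS: Arntl, an activating factor of the circadian clock, was at 74.3, 2.43, 4.001, 6.77 and 11.4 on high salt against 60.1 to 87.2 on normal salt, and its part in these calls was not tested beyond that covariate.

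**Figure D2:**
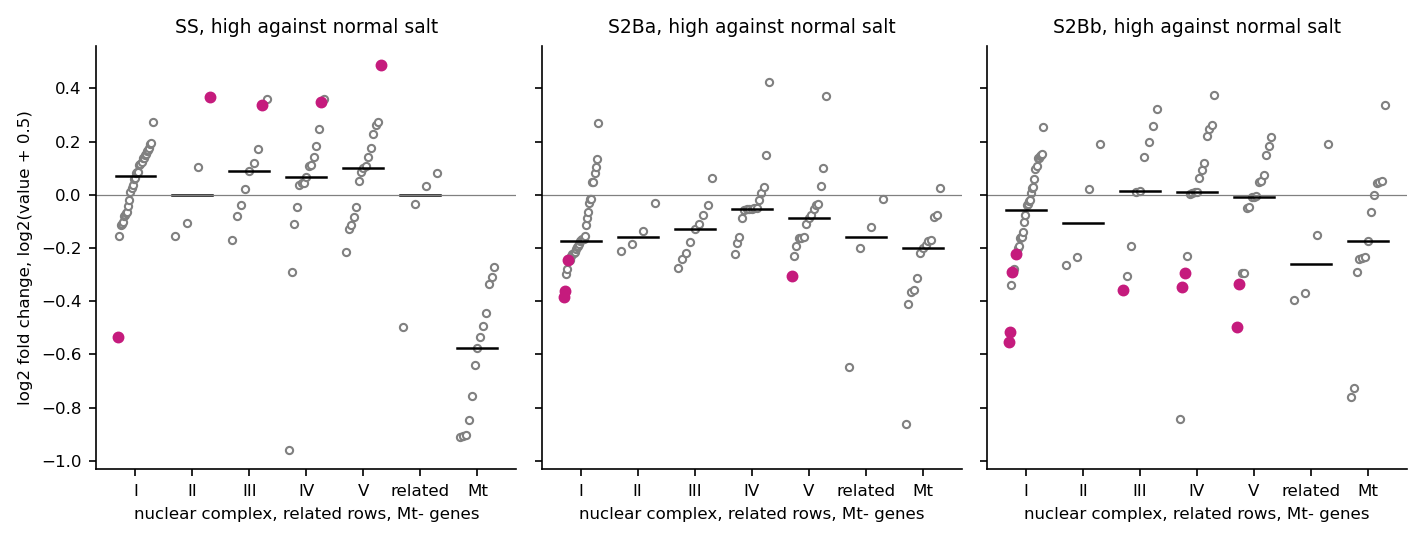
Log2 fold change between high and normal salt on the log2(value + 0.5) scale (y axis) of every member, by nuclear complex, related rows and Mt- genes (x axis), in SS, S2Ba and S2Bb. Filled points were called and lines are medians; all 13 Mt- genes lie below 0 in SS, and the 9 called points in S2Bb are all below 0.

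All 13 Mt- genes had lower means on high salt than on normal salt in SS rats, but none passed the test over all genes. Their median log2 fold change was -0.58, from -0.91 for Mt-nd6 to -0.27 for Mt-co1. In limma 0 of 13 were called and 9 had an unadjusted p under 0.05, edgeR called 2 and DESeq2 3 (7.89% and 10.35% of all genes). Mt-nd5, a core subunit of the complex I membrane arm, ran from 171 to 681 with a median of 417 on normal salt and was at 179, 291, 298, 164 and 162 on high salt, a log2 fold change of -0.91 (SE 0.30, adjusted p = 0.0514). Mt-nd4, another proton-pumping core subunit, ran from 4.38 to 13.7 with a median of 10.4 and was at 3.701, 5.92, 5.14, 3.798 and 3.84 on high salt, for a log2 fold change of -0.90 (SE 0.30, adjusted p = 0.0538). In both genes the groups overlapped, and the lowest normal salt library was replicate 3. The Mt-nd4 row held only 32 to 176 reads per library, 2818 in all, against 14867 for Mt-nd4l and 123016 for Mt-nd5. Why it held so few was not tested. Mt-cyb, the mitochondrial subunit of complex III, was at 1143 ± 368 and 722 ± 203 (SD, n = 6 and 5); the log2 fold change was -0.64 (SE 0.23, adjusted p = 0.0721). In complex IV, Mt-co1, the catalytic subunit, was at 11156 ± 3065 and 9083 ± 1694 (log2 fold change -0.27), Mt-co2 at 2009 ± 601 and 1592 ± 351 (-0.31) and Mt-cox3 at 3081 ± 1004 and 2165 ± 565 (-0.49). Of complex V, Mt-atp6, part of the proton channel, was at 1821 ± 676 and 1232 ± 358 (log2 fold change -0.53), and Mt-atp8 at 102 ± 60.1 and 71.4 ± 26.8 (-0.44).

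The other Mt- genes of complex I had log2 fold changes in SS of -0.58 for Mt-nd1, -0.76 for Mt-nd2, -0.34 for Mt-nd3, -0.85 for Mt-nd4l and -0.91 for Mt-nd6. Genes of the mitochondrial genome share transcripts and several neighbours overlap, among them Mt-nd4l with Mt-nd4 and Mt-atp8 with Mt-atp6, and Mt-nd6 lies on the other strand. Whether reads were counted by strand is not given in the sources used here, so the 13 values are not independent measures and reads of overlapping genes could not be told apart. With clock components as covariates 7 of the 13 were called lower: Mt-nd1 (adjusted p = 0.0207), Mt-nd2 (0.0164), Mt-nd4l (0.0223), Mt-nd5 (0.0283), Mt-cyb (0.0277), Mt-cox3 (0.0276) and Mt-atp6 (0.0326). Over all genes 2.63% were called in that setting. The clock gene Arntl was at 2.43 to 11.4 in all SS high salt libraries but replicate 1. That library, with Arntl at 74.3, had the lowest Mt- level (55.7%). Diet and clock are therefore hard to tell apart in SS, and Mt-nd2 moved from -0.76 to -1.60 in that fit. Without SS normal salt replicate 3 there were 6 (12.7% of all genes). Without the 6 libraries over 20% in AY172581.24 the median moved to -0.29 with 0 called (0.20% of all genes). That setting selects on a row treated as mitochondrial. It removes SS normal salt replicates 2, 4 and 6, with the highest Mt- levels of that group (191%, 141% and 132%). It also removes SS high salt replicate 4, the highest of its group (104.7%). Libraries were thus left out partly by the quantity compared, so this setting cannot decide whether the Mt- genes differed. Adipocyte markers moved with these genes. All 9 measured had a negative fold change, with a median of -1.16 and 0 called, and their summed level ran from 123 to 920.1 with normal salt and from 124 to 298 with high salt. The 9 were negative on salt in S2Ba and S2Bb too, with medians of -0.65 and -0.47 and 0 called. Their part in the result was not tested.

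In S2Ba rats on high salt 4 nuclear members fell and 0 rose, a share of 5.06% against 15.2% of all tested genes (8.12% higher and 7.04% lower). The nuclear median was -0.12, with 65 of 79 members negative, against -0.01 over all genes. Cytosolic ribosomal protein genes had similar values, with 62 of 71 negative and a median of -0.11, while in SS 62 of 71 were positive with a median of 0.11. Their part in the nuclear medians was not tested. Of complex I, 3 genes were called. Ndufs7, a core subunit beside the ubiquinone site, ran from 36 to 59.4 with a median of 40.4 on normal salt and was at 38.6, 35.6, 32.6, 34.3 and 22.6 on high salt, a log2 fold change of -0.39 (SE 0.13, adjusted p = 0.0468). Its groups overlapped, and the highest value was that of normal salt replicate 1. Ndufb10, an accessory subunit of the membrane arm, ran from 33.4 to 45.5 with a median of 38.2 and was at 28.1, 32.9, 31.5, 31.4 and 26.95, without overlap (5.31% of all genes), a log2 fold change of -0.36 (SE 0.10, adjusted p = 0.0163). Ndufs4, an accessory subunit of the matrix arm, ran from 45.9 to 56.5 with a median of 54.7 and was at 40.5, 43.96, 45.1, 51.4 and 41.8, with overlap and a log2 fold change of -0.25 (SE 0.08, adjusted p = 0.0302). In complex V the called gene was Atp5b, the catalytic beta subunit. It ran from 514 to 810.1 with a median of 613 on normal salt and was at 579, 522, 517, 499.8 and 493 on high salt, a log2 fold change of -0.30 (SE 0.10, adjusted p = 0.0384). The alpha subunit Atp5a1 was at 423 ± 67.8 and 375 ± 16.9 and was not called (adjusted p = 0.218). No gene of complexes II, III or IV was called. The calls fell from 4 to 1 under upper quartile scaling, under scaling without mitochondrial genes, with the compared groups alone and without the libraries over 20% in AY172581.24, and to 0 without S2Ba high salt replicate 6. Over all genes the shares called in the settings with 1 call were 15.2%, 14.5%, 8.11% and 10.7%, in that order. The 13 Mt- genes had a median of -0.20 with 12 negative, and 0 were called in limma, 1 had an unadjusted p under 0.05, and edgeR and DESeq2 called 1 each (16.2% and 18.75% of all genes). The gene with the smallest p in limma was Mt-nd6, at 21.7 ± 12.8 on normal and 9.86 ± 2.53 on high salt (log2 fold change -0.86, adjusted p = 0.134).

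In S2Bb rats on high salt 9 of the 79 nuclear members fell and 0 rose. That is 11.4% of the members against 22.1% of all tested genes, of which 10.7% were higher and 11.4% lower, so the share called lower was that of all genes. The nuclear median was -0.00759, against -0.00159 over all genes, and it turned positive under upper quartile scaling (0.01) and with clock components as covariates (0.04). Of complex I, the genes described are Ndufs7, Ndufb7 and Ndufb10. Ndufs7 ran from 36.03 to 44.98 with a median of 42.8 on normal salt and from 19.1 to 37.4 with a median of 27.9 on high salt, a log2 fold change of -0.55 (SE 0.13, adjusted p = 0.00185). The groups overlapped in 1 high salt library, replicate 6 at 37.4. Ndufb7 ran from 10.9 to 14.4 with a median of 12.6 on normal salt and from 6.795 to 10.8 with a median of 8.73 on high salt. The diets did not overlap, as for 10.4% of all genes, and the log2 fold change was -0.51 (SE 0.13, adjusted p = 0.00349). Ndufb10 was at 34.9 ± 4.24 and 28.5 ± 3.595 (SD, n = 6 and 6), a log2 fold change of -0.29 (SE 0.10, adjusted p = 0.0303). In complex III, Uqcrc1, a core protein of the bc1 complex, was at 107 ± 11.7 and 83.5 ± 10.8 on the diets, for a log2 fold change of -0.36 (SE 0.12, adjusted p = 0.0354).

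Of complex IV in S2Bb, Cox4i1, the common isoform of subunit 4, ran from 143 to 177 with a median of 158 on normal salt and from 107 to 154 with a median of 128 on high salt, a log2 fold change of -0.30 (SE 0.09, adjusted p = 0.0128). Cox8a, the common isoform of subunit 8, ran from 44.9 to 57.8 with a median of 50.02 and from 34.96 to 47.6 with a median of 41.1, a log2 fold change of -0.35 (SE 0.11, adjusted p = 0.0182). In both genes 1 high salt library lay inside the normal salt range, replicate 1 for Cox4i1 and replicate 6 for Cox8a. In complex V, Atp5g3, which encodes the same mature c subunit as Atp5g1, ran from 71.1 to 97.7 with a median of 92.2 on normal salt and from 51.1 to 69.96 with a median of 63.8 on high salt. The groups did not overlap, and its adjusted p was the smallest of all members in any comparison, with a log2 fold change of -0.50 (SE 0.09, adjusted p = 0.000254). Atp5b ran from 566 to 721 with a median of 611 and from 477 to 600.3 with a median of 487, a log2 fold change of -0.34 (SE 0.10, adjusted p = 0.0109). All high salt libraries but replicate 6 lay below the normal salt libraries. Ndufb7, Ndufs7, Cox8a and Atp5g3 were called on salt in S2Bb under every alternative tried, and no other call of a member in any comparison was. Without the libraries over 20% in AY172581.24, none of which are S2Bb and which enter this comparison through the shared estimate of the spread, the count went from 9 to 15. Over all genes 24.8% were called in that setting. The Mt- genes had a median of -0.18 with 9 of 13 negative, and 0 were called in limma. Mt-nd2 (log2 fold change -0.76, adjusted p = 0.0816) and Mt-nd4 (-0.73, adjusted p = 0.0635) had an unadjusted p under 0.05, edgeR called 0 and DESeq2 called 1 (22.6% and 24.6% of all genes).

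**Figure D3:**
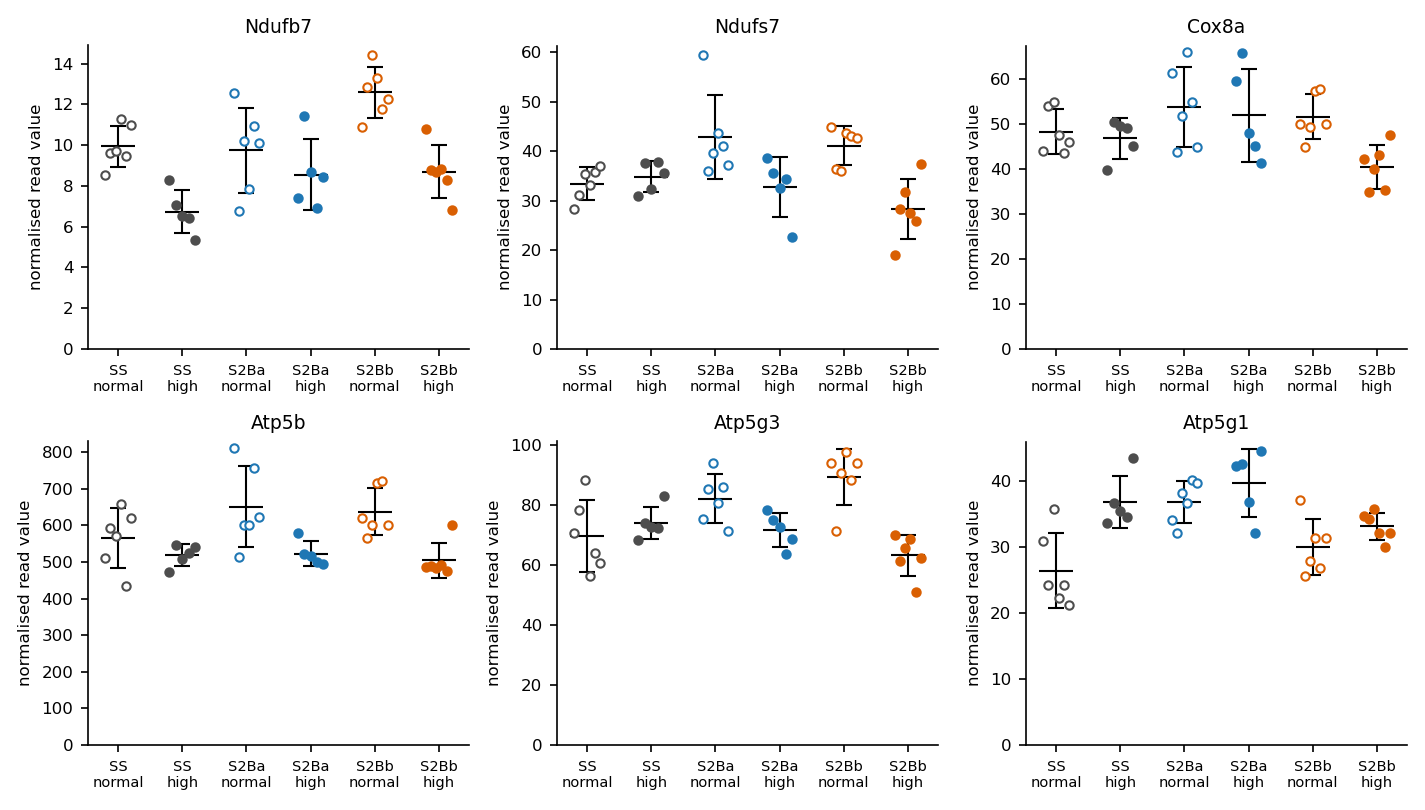
Normalised read values (y axis) of Ndufb7, Ndufs7, Cox8a, Atp5b, Atp5g3 and Atp5g1 in every library by group (x axis, strain and salt). Open points are normal salt, filled points high salt, and bars are mean with SD; Atp5g3 in S2Bb lies between 51.1 and 70.0 on high salt and between 71.1 and 97.7 on normal salt.

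The 3 strains share no library in these salt comparisons. Ndufb10, Ndufs7 and Atp5b fell in both congenic strains, 3 of the 4 genes called in S2Ba and 3 of the 9 in S2Bb, and Ndufb7 fell in SS and in S2Bb. In SS the log2 fold changes of the first 3 were -0.10, 0.06 and -0.11, and Ndufb7 in S2Ba had -0.17 (adjusted p = 0.412), none of them called. The paired c subunit genes differed in their values. Atp5g1 had log2 fold changes of 0.49, 0.10 and 0.15 on salt in SS, S2Ba and S2Bb, and Atp5g3 had 0.10, -0.19 and -0.50. Atp5g1 in SS and Atp5g3 in S2Bb were called. Whether the salt response itself differed between strains was tested as an interaction. In S2Ba against SS 0 of 92 members were called (0% of all genes). Of 79 nuclear members 70 had a negative interaction, with a median of -0.18 against 0.01 over all genes, and all 13 Mt- genes a positive one. Cytosolic ribosomal protein genes, given above, also had mostly opposite signs on salt in SS and in S2Ba, and their part was not tested. At an unadjusted p under 0.05 there were 18 nuclear members, and 0 were called by edgeR and by DESeq2. In S2Bb against SS 0 members were called in limma, against 0.171% of all genes, with 7 nuclear members at an unadjusted p under 0.05. Atp5g3 came closest, with an interaction of -0.60 (SE 0.14, adjusted p = 0.0542). Its adjusted p ran from 0.0114 in DESeq2 to 0.409 over all alternatives, and it was called by DESeq2 and without SS normal salt replicate 3, S2Bb normal salt replicate 2 or S2Bb high salt replicate 6. The interactions share the SS libraries and are given side by side.

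Promoters were read for the members that fell on salt in both congenic strains (Ndufb10, Ndufs7 and Atp5b) and for those called on salt in S2Bb under every alternative (Ndufb7, Ndufs7, Cox8a and Atp5g3). Each is given in RefSeq's build GRCr8 as 300 bases, 250 before and 50 after the annotated start, along the strand of the gene. Promoters were found for 67 of the 77 nuclear symbols. The letters TGCGCA, taken for NRF1, the letters CCGGAAG, taken for GABPA, and the letters AAGATGG, taken for YY1, were searched on both strands. These 3 factors are known to act at promoters of respiratory genes. The first motif reads the same on both strands, and matches of different motifs overlapped in 0 of the 67 and in 9 of all promoters. Capitals mark the matches. Atp5b, listed by RefSeq as Atp5f1b, is at chr7:1099808-1100107 (+ strand), Atp5g3, listed as Atp5mc3, at chr3:79220615-79220914 (- strand), and Cox8a at chr1:213833574-213833873 (- strand). Ndufb10 is at chr10:14255917-14256216 (- strand), Ndufb7 at chr19:41477242-41477541 (- strand) and Ndufs7 at chr7:10110449-10110748 (- strand).
Ndufb10: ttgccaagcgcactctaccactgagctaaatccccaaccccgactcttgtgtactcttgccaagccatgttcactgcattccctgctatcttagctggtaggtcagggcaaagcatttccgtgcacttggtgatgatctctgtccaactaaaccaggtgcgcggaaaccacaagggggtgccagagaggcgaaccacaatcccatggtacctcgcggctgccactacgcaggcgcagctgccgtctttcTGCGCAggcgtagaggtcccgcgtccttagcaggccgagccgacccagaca
Ndufs7: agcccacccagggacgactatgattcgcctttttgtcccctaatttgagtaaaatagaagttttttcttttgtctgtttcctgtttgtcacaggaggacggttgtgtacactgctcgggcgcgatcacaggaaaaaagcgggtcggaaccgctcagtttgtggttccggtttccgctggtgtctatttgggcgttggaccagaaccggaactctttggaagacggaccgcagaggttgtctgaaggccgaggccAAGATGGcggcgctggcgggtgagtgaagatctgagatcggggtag
Ndufb7: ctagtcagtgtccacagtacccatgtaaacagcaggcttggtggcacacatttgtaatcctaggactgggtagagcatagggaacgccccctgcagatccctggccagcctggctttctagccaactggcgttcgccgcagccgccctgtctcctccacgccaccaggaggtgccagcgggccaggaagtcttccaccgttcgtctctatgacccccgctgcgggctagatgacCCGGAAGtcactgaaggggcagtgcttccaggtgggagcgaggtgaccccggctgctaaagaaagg
Cox8a: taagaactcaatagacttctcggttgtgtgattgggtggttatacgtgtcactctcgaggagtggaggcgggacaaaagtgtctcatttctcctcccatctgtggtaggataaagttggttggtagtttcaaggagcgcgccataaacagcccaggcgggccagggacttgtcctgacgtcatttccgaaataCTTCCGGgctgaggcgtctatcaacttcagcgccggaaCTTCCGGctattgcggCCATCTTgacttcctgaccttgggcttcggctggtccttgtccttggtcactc
Atp5b: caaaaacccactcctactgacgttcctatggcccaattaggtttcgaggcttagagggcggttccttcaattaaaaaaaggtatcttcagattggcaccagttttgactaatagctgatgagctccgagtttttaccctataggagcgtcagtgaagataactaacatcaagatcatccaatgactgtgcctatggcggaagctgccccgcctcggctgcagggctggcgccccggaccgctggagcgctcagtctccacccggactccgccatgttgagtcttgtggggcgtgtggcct
Atp5g3: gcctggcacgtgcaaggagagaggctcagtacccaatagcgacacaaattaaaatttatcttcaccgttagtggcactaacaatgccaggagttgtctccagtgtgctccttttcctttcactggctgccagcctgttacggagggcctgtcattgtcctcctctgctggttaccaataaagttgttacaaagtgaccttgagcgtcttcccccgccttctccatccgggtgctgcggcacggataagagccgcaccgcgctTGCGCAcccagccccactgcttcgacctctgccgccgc

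Of these 6 promoters 5 held a match and that of Atp5b held none. The NRF1 letters began at base -1 from the start in Ndufb10 and at base 13 in Atp5g3. The GABPA letters began at base -16 in Ndufb7, and Cox8a held them on the other strand at bases -57 and -19. The YY1 letters began at base 5 in Ndufs7 and, on the other strand, at base -3 in Cox8a. Over the 67 promoters the NRF1 letters occurred in 20 (29.85%), those of GABPA in 17 (25.4%) and those of YY1 in 18 (26.9%), and 42 (62.7%) held at least 1 of the motifs. Over all 27457 promoters in RefSeq's table the shares were 7.685%, 9.22%, 7.295% and 21.5%. The median GC content was 56% in the members' promoters and 52.3% in all. A match describes letters only.

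Between strains on normal salt few members passed the test, while most nuclear members had positive fold changes in the congenic strains against SS. In S2Ba against SS 1 of 79 nuclear members was called, 1.27% against 0.267% of all genes, while 72 had a positive log2 fold change with a median of 0.21 (-0.03 over all genes) and 42 an unadjusted p under 0.05 and a higher mean. The share of all genes at that unadjusted p is not given here. The called gene was Atp5g1, with a lowest value of 21.2, a median of 24.2 and a highest of 35.8 in SS and from 32.1 to 40.2 with a median of 37.5 in S2Ba, a log2 fold change of 0.49 (SE 0.11, adjusted p = 0.0346). The strains overlapped through SS replicate 3, and the call was lost with the compared groups alone, with clock components as covariates, without the libraries over 20% in AY172581.24 and when any 1 of 7 libraries was left out. Without SS normal salt replicate 3 the count was 14 (2.27% of all genes), and DESeq2 called 10 (1.16% of all genes). Cytosolic ribosomal protein genes moved with these values: of 71 measured, 66 were positive, with a median of 0.24, and 52 had an unadjusted p under 0.05 and a higher mean, with a summed level of 14302 to 18229 in SS and 15867 to 20655 in S2Ba. Their part in the result was not tested. The 13 Mt- genes all had a negative log2 fold change (median -0.49), with 0 called in limma, 4 at an unadjusted p under 0.05 and 0 called by edgeR and by DESeq2. Of the adipocyte markers all 9 were negative as well (median -0.56) and of the brown fat markers 6 of 8 (median -0.45), with 0 called in either. The adipocyte sum was 123 to 920.1 in SS and 71.3 to 1811 in S2Ba. Their part in the result was not tested. In S2Bb against SS 1 of 79 nuclear members was called, against 1.44% of all genes, and 68 were positive with a median of 0.11. This was Atp5g3, from 56.3 to 88.2 with a median of 67.2 in SS and from 71.1 to 97.7 with a median of 92.2 in S2Bb, a log2 fold change of 0.37 (SE 0.09, adjusted p = 0.0379). It overlapped between strains, and 5 of 10 other settings lost the call. The Mt- median was -0.09, and it turned to 0.37 without the libraries over 20% in AY172581.24. Among those are SS normal salt replicates 2, 4 and 6, which had high Mt- levels. Both comparisons share the SS libraries.

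S2Bb and S2Ba on normal salt differed in 1 Mt- gene. Mt-nd2, a core subunit of the complex I membrane arm, ran from 232 to 737 with a median of 421 in S2Ba and from 673 to 1649.5 with a median of 1056 in S2Bb, a log2 fold change of 1.37 (SE 0.32, adjusted p = 0.0125) with 3.15% of all genes called. The lowest S2Bb library lay inside the S2Ba range. In SS on normal salt the gene ran from 329 to 1701 with a median of 736, which overlaps both. The call held under all 10 other settings and was lost without S2Ba normal salt replicate 6 (adjusted p = 0.0508). Of the other 12 Mt- genes none was called, among them Mt-nd1 at 689.8 ± 239.7 in S2Ba and 1203 ± 372 in S2Bb (log2 fold change 0.82, adjusted p = 0.0511), while Mt-co1 was at 10558 ± 3012 and 10323 ± 2018 (-0.01). As a share of the reads in the 13 Mt- genes, which does not depend on the size factor, Mt-nd2 took 1.65% to 2.98% in S2Ba and 4.05% to 5.99% in S2Bb. These shares did not overlap. They were 2.21% to 5.37% in SS on normal salt and 2.07% to 3.11%, 2.14% to 3.34% and 2.16% to 4.23% on high salt in SS, S2Ba and S2Bb. Mt-co1 took 49.1% ± 3.43 (SD, n = 6) in S2Bb and 55.97% ± 3.75 (n = 6) in S2Ba. The shares were looked at because Mt-nd2 had been called, and no test was made on them. Among nuclear members 1 was lower in S2Bb, Atp5e, the epsilon subunit of the central stalk, at 92.04 ± 13.01 in S2Ba and 72.1 ± 11.7 in S2Bb, with overlap and a log2 fold change of -0.35 (SE 0.10, adjusted p = 0.0341). That call was lost in 3 of 10 other settings and when any 1 of 7 libraries was left out.

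**Figure D4:**
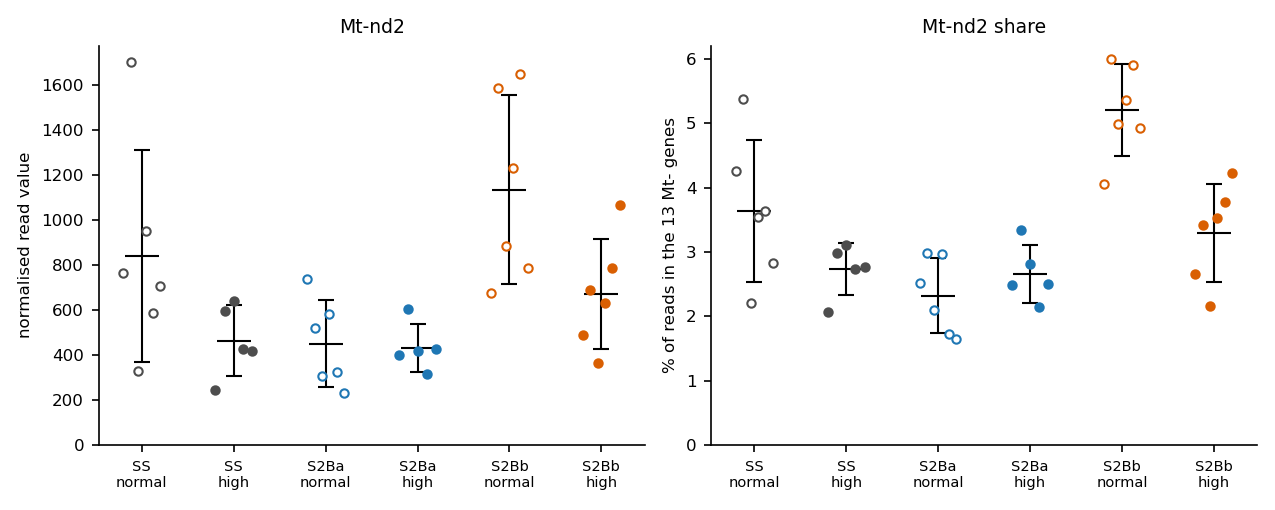
Normalised read value of Mt-nd2 (left, y axis) and its percent of the reads in the 13 Mt- genes (right, y axis) in every library by group. Open points are normal salt, filled points high salt, and bars are mean with SD; the share in S2Bb on normal salt starts at 4.05%, and no library of S2Ba on normal salt passes 2.98%.

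On high salt no member was called in any pair of strains, against 1.73% of all genes for S2Ba against SS, 0.267% for S2Bb against SS and 0.609% for S2Bb against S2Ba. Nuclear medians were 0.02, -0.01 and -0.03, and 4, 3 and 8 nuclear members had an unadjusted p under 0.05. Neither edgeR nor DESeq2 called a member there. The Mt- genes had medians of -0.13, 0.37 and 0.51 in these comparisons, with 12 of 13 positive in each comparison of S2Bb and 0, 3 and 6 at an unadjusted p under 0.05. Mt-atp8 was the furthest apart of S2Bb and S2Ba, at 115 ± 31.8 and 55.5 ± 24.99 (log2 fold change 1.09, adjusted p = 0.146). The congenic strains differ from SS in chromosome 2, on which RefSeq places 5 of the 79 nuclear members: Ndufb5, Ndufc1, Ndufs4, Cox7c and Atp5f1. Where the BN segments end was not used here. None of the 5 was called in any comparison of strains. Their smallest adjusted p was 0.0950, for Cox7c in S2Ba against SS on normal salt, with a log2 fold change of 0.39 and a 95% interval of 0.18 to 0.61.

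Cox6a2 and Cox7a1, the isoforms of heart and skeletal muscle, had means of 0.0659 and 0.0182 over the libraries and Cox8c, known from testis, 0.0164, while Cox6a1, the common isoform, had group means of 108.4 to 128. Cox7a2 was not analysed here. Cox4i2, the isoform of subunit 4 known from lung, had group means of 2.15 to 3.19 and was not called on salt (log2 fold changes of 0.36, 0.15 and 0.26 in SS, S2Ba and S2Bb), where Cox4i1 fell in S2Bb. Cox6b2, known from testis, was at group means of 0.561 to 1.18, and the rows of Cox6b1 were not called. Neither Cox5a nor Cox5b was called on salt in any strain. Ndufa4 was at 63.7 ± 11.3 in SS on normal salt and 74.9 ± 5.399 on high salt, and Ndufa4l2, a hypoxia-inducible relative, at 3.92 ± 1.26 and 2.64 ± 1.12. Neither was called in any comparison, although Ndufa4l2 on high salt did not overlap between SS (2.21, 2.05, 1.88, 2.48 and 4.603) and S2Ba (1.87, 1.21, 0.666, 1.397 and 0.927), where 5.35% of all genes did not overlap.

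Cox8b, the isoform of subunit 8 found in brown fat and striated muscle, varied most of all members between libraries of a group. It ran from 0 to 9.504 with a median of 2.27 in SS, from 0 to 17.9 with a median of 0.110 in S2Ba and from 1.08 to 8.57 with a median of 3.27 in S2Bb on normal salt. On high salt it was at 0, 4.25, 0.735, 0.908 and 0 in SS and 1.87, 0.0810, 2.33, 1.49 and 0.421 in S2Ba and ran from 0.0872 to 4.05 with a median of 1.399 in S2Bb. All groups overlapped, and it was not called in any comparison. Ucp1, the uncoupling protein of brown fat, varied with it. In the library with the highest Cox8b, S2Ba normal salt replicate 1, Ucp1 was at 146 and Cidea at 90.9, and in the next, SS normal salt replicate 4, Ucp1 was at 56.2. Cidea, another brown fat marker, did not always follow. In S2Ba high salt replicate 3 it was at 55.5 with Ucp1 at 0 and Cox8b at 0.0810. Mean Cidea in S2Ba was 38.9 on normal and 48.6 on high salt. Mean Cox8b was 4.195 and 1.24 there, and mean Ucp1 34.1 and 10.6. The 5 libraries with Cox8b at 0 had Ucp1 between 0 and 0.630. Of 10 brown fat markers 8 were measured, and the other 2, Elovl3 and Zic1, reached at most 0.368 and 0.240. Their summed level ran from 147 to 362 in SS, 100.5 to 506 in S2Ba and 143 to 286 in S2Bb on normal salt, and from 103 to 206, 124 to 194 and 112 to 197 on high salt. Their part in the values of Cox8b was not tested.

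**Figure D5:**
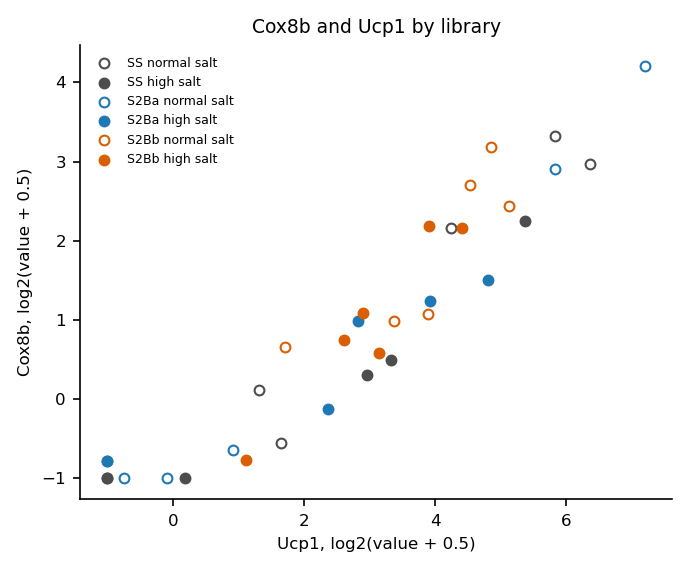
Cox8b (y axis) against Ucp1 (x axis) in the 34 libraries, both as log2(value + 0.5). Open points are normal salt and filled points high salt, coloured by strain; libraries with Cox8b at 0 sit at the lower left, and S2Ba normal salt replicate 1, with Ucp1 at 146.4, is at the upper right.

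Genes that build and serve the complexes were counted beside their subunits. On salt 0, 0 and 4 of 38 assembly factors were called in SS, S2Ba and S2Bb, all 4 lower: Cox20, which assists complex IV, from 19.3 ± 0.910 to 15.5 ± 1.86 (adjusted p = 0.00448), Sdhaf4, which assists complex II, from 4.73 ± 0.786 to 3.03 ± 0.384 (adjusted p = 0.00838), Foxred1, which assists complex I, from 17.2 ± 1.15 to 13.8 ± 2.21 (adjusted p = 0.0124), and Nubpl, which delivers iron-sulfur clusters to complex I, from 5.63 ± 0.994 to 4.25 ± 0.760 (adjusted p = 0.0344). Of 24 genes that copy, transcribe and process mitochondrial DNA, 1 rose in SS, 1 rose in S2Ba and 2 fell in S2Bb. The one in SS was Fastk from 39.8 ± 4.201 to 49.04 ± 2.54 (adjusted p = 0.0283), and the one in S2Ba was Tfb2m, a transcription factor of mitochondria, from 10.7 ± 1.91 to 13.6 ± 0.708 (adjusted p = 0.0325). In S2Bb Polrmt, the mitochondrial RNA polymerase, fell from 14.8 ± 2.73 to 11.4 ± 2.01 (adjusted p = 0.0420) and Elac2, which trims tRNA ends, from 21.4 ± 1.30 to 18.5 ± 1.57 (adjusted p = 0.0379). Tfam, which packs mitochondrial DNA and starts its transcription, was not called, with means of 16.2 and 16.4 in SS, 17 and 16.5 in S2Ba and 16.4 and 17.2 in S2Bb on normal and high salt. Of 70 mitochondrial ribosomal protein genes 2 rose and 1 fell in SS, 0 were called in S2Ba, and 1 rose and 3 fell in S2Bb. The shares called of these 3 lists lay between 0% and 10.5% in the 3 strains, below that of all genes in each.

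Of 13 regulators of mitochondrial biogenesis measured, 0 were called in SS, 3 rose and 1 fell in S2Ba, and 3 rose and 2 fell in S2Bb. These are shares of 0%, 30.8% and 38.5%, against 8.38%, 15.2% and 22.1% of all genes. Ppargc1a, the coactivator known to drive respiratory gene expression, rose in S2Ba from 3.54 ± 1.92 to 7.05 ± 2.603 (adjusted p = 0.0271) and in S2Bb from 3.897 ± 1.84 to 7.48 ± 4.28 (adjusted p = 0.0392), and in SS it went from 3.55 ± 1.18 to 5.04 ± 1.39 (adjusted p = 0.347) without being called. Its high salt values were 5.11, 7.53, 11.3, 4.98 and 6.32 in S2Ba against 1.65 to 6.99 on normal salt, with overlap, and in S2Bb replicate 1 stood at 15.9, the highest library. Prkaa1, a catalytic subunit of AMP-activated kinase, rose in S2Ba from 66.1 ± 7.04 to 91.1 ± 9.16 (adjusted p = 0.00310) and in S2Bb from 66.6 ± 5.16 to 82.95 ± 17.9 (adjusted p = 0.0345), and Prkaa2, the other catalytic subunit, in S2Ba from 57.7 ± 8.93 to 79.8 ± 12.4 (adjusted p = 0.0285). Esrrg, an orphan receptor that partners Ppargc1a, rose in S2Bb from 3.11 ± 0.607 to 5.17 ± 0.961 (adjusted p = 0.0216). Ppargc1b, a relative of Ppargc1a, fell in S2Ba from 14.2 ± 4.73 to 7.97 ± 2.06 (adjusted p = 0.00784). In S2Bb Yy1 fell from 32.4 ± 1.39 to 24.5 ± 1.84 (adjusted p = 5.66e-05) and Sirt1, a deacetylase, fell from 42.6 ± 7.98 to 30.04 ± 3.73 (adjusted p = 0.00136).

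Pathways that feed the chain were counted in the same way. Of 13 genes of the citric acid cycle 0, 2 and 1 fell on salt in SS, S2Ba and S2Bb and none rose, among them Idh2, a mitochondrial isocitrate dehydrogenase, in S2Ba from 224 ± 18.5 to 169 ± 14.1 (adjusted p = 0.00817) and Suclg2, a subunit of succinyl-CoA ligase, in S2Bb from 92.6 ± 5.299 to 76.3 ± 7.79 (adjusted p = 0.00576). Of 15 genes of fatty acid oxidation only Etfb, which carries electrons to the chain, fell, in S2Bb from 21.6 ± 6.51 to 12.4 ± 2.45 (adjusted p = 0.0116). Of 20 carriers and exchangers, 1 rose in SS, the phosphate carrier Slc25a3 from 200.1 ± 18.9 to 231 ± 13.5 (adjusted p = 0.0317), and 3 fell in S2Bb, among them Slc25a4, an ADP/ATP carrier, from 212 ± 14.4 to 169 ± 17.1 (adjusted p = 0.0122) and Vdac2, a channel of the outer membrane, from 199 ± 11.6 to 152 ± 13.3 (adjusted p = 0.000695). Of 15 glycolytic genes 1 fell in SS, 1 rose and 3 fell in S2Ba, and 2 rose and 1 fell in S2Bb. Against 8.38%, 15.2% and 22.1% of all genes in SS, S2Ba and S2Bb, the shares called were 0%, 15.4% and 7.69% for the citric acid cycle, 0%, 0% and 6.67% for fatty acid oxidation, 5%, 0% and 15% for the carriers and 6.67%, 26.7% and 20% for glycolysis. Aldoc, an aldolase, fell in all 3 strains, in S2Bb from 23.4 ± 2.59 to 6.86 ± 1.03 (adjusted p = 5.35e-07), while Gapdh rose in S2Ba from 231 ± 36.1 to 309 ± 45.4 (adjusted p = 0.0111) and in S2Bb from 204 ± 12.4 to 280.0 ± 66.4 (adjusted p = 0.00377). Markers of other cells also changed on salt, some higher and some lower. Their counts are to be read against the same 8.38%, 15.2% and 22.1% of all genes. Of 7 fibroblast markers 2, 3 and 2 fell in SS, S2Ba and S2Bb, and their summed level was 9334 to 12921 and 6196 to 10092 in SS on normal and high salt, 6955 to 13768 and 3619 to 6638 in S2Ba and 7833 to 12131 and 5179 to 8571 in S2Bb. The largest part of that sum was Col1a1, with a mean of 4721 against 1456 for the next, Dcn. Of 9 macrophage markers 0, 2 and 1 rose, with summed levels of 297 to 372 and 221 to 418 in SS, 229.7 to 432 and 295 to 790.1 in S2Ba and 231 to 332 and 282 to 790.4 in S2Bb. Of 7 endothelial markers 2 fell in SS (Cdh5 and Kdr), 1 rose in S2Ba (Vwf) and 1 fell in S2Bb (Kdr), with summed levels of 267 to 504 and 266 to 469.5 in SS, 233 to 476 and 293 to 535 in S2Ba and 307.5 to 465 and 363 to 565 in S2Bb. Of 8 brown fat markers 2 fell in S2Ba (Ebf2 and Kcnk3) and 2 in S2Bb (Kcnk3 and Prdm16). Of 4 skeletal muscle markers 1 rose (Myh4) and 1 fell (Ckm) in S2Ba and 1 fell in S2Bb (Ckm), of 4 Schwann and neuronal markers 1 fell in SS (Mbp), and of 8 smooth muscle markers 1 rose in S2Ba and 1 rose and 1 fell in S2Bb. Of the fibroblast and macrophage markers none was at 0 throughout, and the part of these lists in the changes of the members was not tested.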

How the data were processed

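Total RNA-seq of thoracic aorta was analysed in 34 libraries of 6 groups. The labels list 36 samples; not analysed here were replicate 3 of SS and replicate 2 of S2Ba, both on high salt. The authors used STAR 2.3.1, edgeR 3.6.8 in R 3.2.3, bcl2fastq 1.8.4 and FastQC, per the submitters' processing notes. Genome build and strand setting: not given in the sources used here. The values the authors deposited are a signal per gene, read counts divided by a size factor per library. Dividing by the value of 1 read gave whole reads for 100% of values within 0.01, and these reads gave the depths. Rows with no symbol held at most 0.0195% of a library's reads.

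From these values limma 3.58.1 (R 4.3.3) was fitted to log2(value + 0.5) over all 6 groups, with the trend option and no covariate, for the 13475 genes with a mean of at least 0.5. Fold changes of low genes are understated on this scale. The 11 contrasts were salt within each strain, strain pairs within each diet and 2 salt-by-strain interactions. P-values were adjusted by Benjamini-Hochberg over all tested genes and called under 0.05. Counts at an unadjusted p under 0.05 are given without the share of all genes at that p and are not calls. Alternatives were a pseudocount of 2, no filter, a mean of at least 5, upper quartile scaling, scaling without mitochondrial genes (Mt- and AY172581 rows), only the groups compared, 2 principal components of clock genes as covariates, edgeR 4.0.16 (quasi-likelihood) and DESeq2 1.42.0 on the recovered reads, and each library left out in turn. Leaving out the 6 libraries with over 20% of reads in AY172581.24 was added after seeing the data. Scripts were tested on simulated data.

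Named were up to 4 called members per complex and contrast by smallest adjusted p, all Mt- and Sdh genes, the isoform pairs, the ATP synthase alpha and beta genes, up to 4 called genes per other list and Ppargc1a, Tfam, Ucp1 and Arntl. Ndufb5, Ndufc1, Cox7c and Atp5f1 were also named for their place on chromosome 2. A called member is included in the counts and not reported here. The members and lists were chosen with earlier results of these data known. Promoters came from RefSeq's table for GRCr8, by symbol or synonym. Python 3.11.15 and pandas 2.3.3 were used.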

Additional observations from a re-analysis of the deposited data

Results flagged for a closer look

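A library that stands far from the others of its group was looked for in 264 groups of libraries and found in 18. Chance gives about 1 in 20 groups, and no explanation was tested. S2Ba normal salt replicate 1 was high in several members: Mt-co1 was at 16318 (next library 11174), Mt-co2 at 2569 (next 1696), the relative level of the Mt- genes of complex IV at 148% (next 97.8%) and Ndufs7 at 59.4 (next 43.8). The same library was low in Cox4i2, at 1.35 against 2.28 in the next. SS normal salt replicate 3 was high in Uqcr10, at 68.3 (next 53.0), and in Atp5e, at 89.5 (next 70.3), and SS normal salt replicate 2 was high in Mt-atp8, at 219.5 (next 100.0).

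On high salt in SS, replicate 6 was high in Ndufb10, at 33.7 (next 30.2), and in Ndufa4l2, at 4.603 (next 2.48), replicate 2 in Cox8b, at 4.25 (next 0.908), and replicate 1 in Mt-nd6, at 31.7 (next 14.9). In S2Ba on high salt the relative level of complex II was 103% in replicate 3 (next 97.6%). In S2Bb on normal salt replicate 2 was low in Atp5g3, at 71.1 (next 88.4), and in Ndufa4l2, at 0.970 (next 4.03). In S2Bb on high salt replicate 1 was high in Cox7c, at 99.2 (next 70.3), and low in Ndufb10, at 21.6 (next 27.7), and replicate 6 was high in Atp5b, at 600.3 (next 492).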

How the results depend on the processing

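No called member reversed its direction under any alternative, and 4 of the 22 calls (a member in a comparison) held under all of them. Counts of called members that moved were as follows, and the cause was not tested. On salt in SS, 5 nuclear calls became 2 with no filter, 3 with scaling without mitochondrial genes, 1 with clock components and 0 without the libraries over 20% in AY172581.24, and 0 Mt- calls became 1 with a mean of at least 5, 1 with scaling without mitochondrial genes, 7 with clock components, 2 in edgeR and 3 in DESeq2. On salt in S2Ba, 4 nuclear calls became 2 with no filter and 1 each under upper quartile scaling, scaling without mitochondrial genes, only the groups compared and without those libraries, and 0 Mt- calls became 1 in edgeR and 1 in DESeq2. On salt in S2Bb, 9 nuclear calls became 15 without those libraries, and 0 Mt- calls became 1 with only the groups compared, 1 with clock components, 1 in DESeq2 and 2 without those libraries. On normal salt, 1 nuclear call of S2Ba against SS became 0 with only the groups compared, with clock components and without those libraries and 10 in DESeq2. For S2Bb against SS 1 became 2 with a pseudocount of 2 and in edgeR, 4 in DESeq2 and 0 with no filter, scaling without mitochondrial genes, only the groups compared, clock components and without those libraries. For S2Bb against S2Ba 1 nuclear call became 0 with no filter, only the groups compared and without those libraries and 4 in DESeq2, and 1 Mt- call became 2 with a mean of at least 5 and in DESeq2 and 3 without those libraries. The S2Bb interaction went from 0 to 1 nuclear call in DESeq2. With each library left out, nuclear calls ran from 1 to 9, 0 to 5 and 7 to 12 on salt in SS, S2Ba and S2Bb, from 0 to 14, 0 to 4 and 0 to 6 for S2Ba against SS, S2Bb against SS and S2Bb against S2Ba on normal salt, and from 0 to 1 in the S2Bb interaction. Mt- calls ran from 0 to 6, 0 to 1 and 0 to 2 on salt and from 0 to 1 and 0 to 2 for S2Ba against SS and S2Bb against S2Ba on normal salt. Over all genes, 1129 calls on salt in SS became 723 with no filter, 354 with clock components and 27 without those libraries, and 2042 in S2Ba became 1093 with only the groups compared. On normal salt 36 for S2Ba against SS became 6 with only the groups compared and without those libraries, 10 with clock components and 156 in DESeq2, 194 for S2Bb against SS became 51 with clock components, 366 in DESeq2 and 32 without those libraries, and 424 for S2Bb against S2Ba became 254 with no filter, 146 with only the groups compared, 656 in DESeq2 and 721 without those libraries. On high salt 233 for S2Ba against SS became 103 with no filter, 360 with only the groups compared, 15 with clock components, 494 in DESeq2 and 73 without those libraries, 36 for S2Bb against SS became 22 with clock components, 70 in DESeq2 and 19 without those libraries, and 82 for S2Bb against S2Ba became 54 with a mean of at least 5, 42 with only the groups compared and 143 in DESeq2. The S2Ba interaction went from 0 to 1 with a mean of at least 5, under upper quartile scaling and in edgeR and to 10 in DESeq2. The S2Bb interaction went from 23 to 1 with no filter, 11 with a mean of at least 5, 12 with scaling without mitochondrial genes, 0 with clock components, 124 in DESeq2 and 0 without those libraries. No paired analysis was possible because replicate numbers were given in accession order and pair no samples.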
